A study of Homo sapiens with 4 samples.

Results

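Transcripts of 8 complement genes (C1R, C1RL, C1S, C2, C3, C4A, C4B and C5) and of the related protease inhibitor A2M were examined in 4 RNA libraries of A375, a human melanoma line with mutant BRAF. The 9 genes were picked by name out of the 2864 genes with values, with their read counts known at the time, so their values are a description and were given no test. The libraries were A375P (A375 without treatment), A375R (a vemurafenib-resistant strain derived from A375 by escalating vemurafenib and kept under it), A375+DMSO (A375 with the solvent for 48 h) and A375+VEM (A375 with 2 μM vemurafenib, an inhibitor of the BRAF kinase, for 48 h). By their labels all 4 are wild type, although A375 has mutant BRAF, and share 1 batch. Each condition had 1 library, and the sources used here do not say whether A375R is 1 clone. Defining markers of the melanocyte lineage (MITF, PMEL, MLANA and 5 others) were not analysed here, since the deposited table used here holds genes in alphabetical order from the start of the gene list only. It carries between 8.48% and 8.94% of the TPM of a library, and its counts sum to between 1891215 and 2054277 reads. TPM corrects the read count for the length of the gene and for the size of the library, so levels can be compared between genes. In bulk RNA, fewer cells with a transcript and less of it per cell cannot be told apart.

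The complement system is a set of plasma proteases and their substrates that marks targets for uptake or lysis. In the classical pathway C1r and C1s are the proteases of the first component. C1r activates C1s, which cleaves C4 and C2, and the products form the enzyme that splits C3, on which all pathways converge. C3, C4 and C5 share their fold with alpha-2-macroglobulin, a broad protease inhibitor that traps its targets. Most of these proteins in blood come from hepatocytes, but many other cell types, tumour cells included, can transcribe the genes.

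The 9 genes lie on 4 chromosomes. In the coordinates of the deposited table, whose build the submitters' processing notes give as hg19, C1S (chr12:7167965-7178336, plus strand), C1R (chr12:7187513-7245043, minus strand) and C1RL (chr12:7247146-7261874, minus strand) are neighbours, with 2102 bases between C1R and C1RL. A2M (chr12:9220304-9268825, minus strand) is on the same chromosome. C2 (chr6:31865562-31913451), C4A (chr6:31949834-31970457) and C4B (chr6:31982572-32003195) are all on the plus strand of the major histocompatibility complex. C3 is at chr19:6677846-6720693 and C5 at chr9:123714613-123837452, both on the minus strand.

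C4A and C4B are near-identical copies, which limits how reads can be assigned to either of them. Their coding sequences in GENCODE v29 (GRCh38) are 5232 bases long and differ at 13 positions, so 99.75% of bases are the same. Of the windows of 100 bases in the C4A transcript, 87.8% also occur in a transcript of another gene, mainly C4B. The densest cluster of differences is in exon 26, known for setting the C4A and C4B isotypes, and is shown because a read needs such bases to be assigned. The stretches cover coding bases 3347 to 3386, at chr6:31996071-31996110 and chr6:32028809-32028848 of GRCh38, plus strand, with the 5 differing bases in capitals (C3359T, G3362C, T3370A, G3373C and C3375T from C4A to C4B, counted from the first base of the start codon).
C4A: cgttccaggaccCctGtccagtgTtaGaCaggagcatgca
C4B: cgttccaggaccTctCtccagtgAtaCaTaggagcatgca

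C1R and C1RL stand side by side on 1 strand, and the sequences before their starts are shown. RefSeq (GRCh38.p14) gives starts for 4 of the 9 genes in the table used here, C1R with 2 of them. The 250 bases before each start were searched on both strands for TTCNNNGAA (GAS, bound by STAT factors), GAAANNGAA (from the core of the interferon-stimulated response element) and TGANTCA (AP-1). Matches are in capitals, and no match overlapped another. The first C1R start is preceded by chr12:7092446-7092695, the second by chr12:7091894-7092143 and the C1RL start by chr12:7109215-7109464, each printed 5′ to 3′ on the minus strand.
C1R, first start: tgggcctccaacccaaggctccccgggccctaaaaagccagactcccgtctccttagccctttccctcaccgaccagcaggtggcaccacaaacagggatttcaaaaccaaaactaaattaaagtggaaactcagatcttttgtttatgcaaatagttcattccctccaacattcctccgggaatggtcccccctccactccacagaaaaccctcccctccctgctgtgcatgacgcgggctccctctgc
C1R, second start: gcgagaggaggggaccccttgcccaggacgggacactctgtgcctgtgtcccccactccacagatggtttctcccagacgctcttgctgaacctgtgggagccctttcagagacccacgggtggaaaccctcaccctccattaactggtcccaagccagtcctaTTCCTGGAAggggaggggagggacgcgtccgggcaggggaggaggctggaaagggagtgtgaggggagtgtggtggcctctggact
C1RL: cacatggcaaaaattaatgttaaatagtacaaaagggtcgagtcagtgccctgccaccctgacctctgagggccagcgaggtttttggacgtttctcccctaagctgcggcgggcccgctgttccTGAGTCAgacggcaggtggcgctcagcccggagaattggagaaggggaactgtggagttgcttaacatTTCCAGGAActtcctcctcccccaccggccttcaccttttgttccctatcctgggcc

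A GAS match is present at 86 to 78 bases before the second C1R start (TTCCTGGAA) and at 57 to 49 bases before the C1RL start (TTCCAGGAA). This motif is found before 6.57% of 35116 starts in RefSeq and before 2 of the 7 starts of C1R, C1RL, C2 and C5. An AP-1 match is present at 125 to 119 bases before the C1RL start (TGAGTCA) and before 6.57% of all starts. GAAANNGAA is in none of the windows of the 7 starts and before 6.88% of all starts. A match describes the letters and does not show binding.

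A ratio between 2 libraries was called past the threshold when (TPM + 0.1) differed by more than 1.5-fold. Only genes that reached a TPM of 1 in one or both libraries of the pair were compared. Log2 ratios include the added 0.1, so they are too small for low genes, whereas folds are plain TPM ratios. Each fold has an exact 95% interval (Clopper-Pearson) computed from the reads of the pair, which covers counting error only and compares libraries, not conditions. Of the 9 genes, A2M, C1R, C1RL, C1S, C2 and C3 passed the filter when A375+VEM was paired with A375+DMSO and when A375P was paired with A375R or A375+DMSO. C4A, C4B and C5 did not pass it in these pairs, with C5 just outside at a TPM of 0.999 in A375+DMSO and C1S just inside at 1.19 in that library.

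C3, the central component, was the most abundant of the 9 per length in every library. A375P held 458 reads of C3, A375R held 4436, A375+DMSO held 1602 and A375+VEM held 9621, for a TPM of 10.4, 112, 39.0 and 236. A375+VEM was the highest library and A375P the lowest, and each neighbour in this order differed beyond counting error. A2M came second in A375+VEM, with 93 reads for A375P, 209 for A375R, 473 for A375+DMSO and 2969 for A375+VEM. Its TPM went from 2.14 in A375P through 5.32 in A375R and 11.7 in A375+DMSO to 73.7 in A375+VEM. The 2 genes thus ranked the middle libraries in opposite order, with C3 at 21.0 times the TPM of A2M in A375R and at 3.20 to 4.87 times in the other 3 libraries.

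C1R, the protease that activates C1s, was read 44 times in A375P, 228 times in A375R, 317 times in A375+DMSO and 970 times in A375+VEM (TPM 2.27, 13.0, 17.5 and 53.9). C1RL, a C1r-like protease, had 239, 401, 479 and 836 reads in the same order of libraries, for a TPM of 7.45, 13.8, 16.0 and 28.1. These neighbours followed the order of A2M, with A375P lowest, then A375R, A375+DMSO and A375+VEM. The step from A375R to A375+DMSO was the smallest for both, with A375R at 0.743 of A375+DMSO for C1R (95% interval 0.624 to 0.884) and at 0.865 for C1RL (0.755 to 0.989). C1S, the protease that cleaves C4 and C2, was much lower, with 24 reads in A375P, 27 in both A375R and A375+DMSO, and 99 in A375+VEM (TPM 0.991, 1.23, 1.19 and 4.41). Only A375+VEM stood apart for C1S, and its other 3 libraries did not differ beyond counting error between neighbours. The ratio of C1R to C1S in TPM was 2.29 in A375P and between 10.5 and 14.6 in the other 3 libraries.

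C2, the protease part of the classical C3 convertase, was covered by 46 reads from A375P, 18 from A375R, 23 from A375+DMSO and 111 from A375+VEM (TPM 1.36, 0.590, 0.730 and 3.55). A375+VEM was again highest, but A375P came next, and A375R and A375+DMSO did not differ beyond counting error. C4A had 8, 7, 12 and 40 reads and C4B 7, 6, 7 and 10 in A375P, A375R, A375+DMSO and A375+VEM. Summed, because the copies differ so little in sequence, the C4 genes reached a TPM of 0.323, 0.309, 0.438 and 1.16, so A375+VEM was the highest for the pair as well. C5, the component that starts the lytic stage, had 33, 36, 50 and 34 reads and a TPM of 0.615 to 0.999. It was the only one of the 9 genes that was not highest in A375+VEM, and neighbours in its order of libraries did not differ beyond counting error. C4B in A375+VEM did not differ detectably from A375+DMSO either (ratio 1.44, 0.494 to 4.45). How many of all genes were highest in A375+VEM was not counted.

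**Figure D1:**
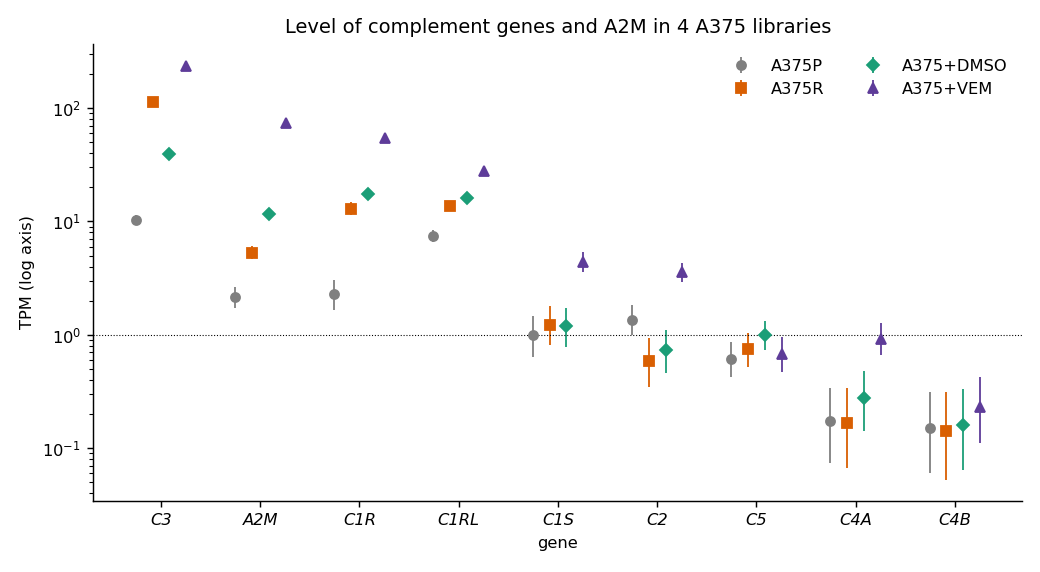
TPM of each gene (log axis) in the 4 libraries, with 1 point per library, exact 95% Poisson intervals of the reads as bars and a dotted line at a TPM of 1. A375+VEM is the highest point for 8 of the 9 genes, from C3 at 236 down to C4B at 0.232, while C5 stays between 0.615 and 0.999. For C4B the bar of A375+VEM overlaps those of the other libraries. How many of all genes were highest in A375+VEM was not counted.

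The pair A375+VEM and A375+DMSO asks what acute vemurafenib does within 48 h. A2M was 6.32-fold higher with vemurafenib (95% interval 5.73 to 6.98) and C3 was 6.05-fold higher (5.74 to 6.38). C2 was 4.86-fold higher (3.08 to 7.98), C1S 3.69-fold (2.39 to 5.88), C1R 3.08-fold (2.71 to 3.51) and C1RL 1.76-fold (1.57 to 1.97). All 6 genes in the filter were thus past 1.5-fold upward, where 26.5% of the 1784 genes compared were upward, 19.7% downward and 46.2% either way, and their median log2 ratio was 1.97 against 0.11 over all genes compared. Over all 9 genes, those below the filter included, the median was 1.62. C2 passed the filter through A375+VEM alone, so it had to be higher there. Ordered by log2 ratio, A2M was at place 27, C3 at place 33 and C2 at place 63 of these 1784 genes, while C1RL was at place 351.

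Of the genes under the filter, C4A was 3.36-fold higher in A375+VEM (95% interval 1.73 to 7.03), and C4A and C4B summed were 2.65-fold higher (1.53 to 4.76). The ratio of C4B alone was 1.44 (0.494 to 4.45), so no difference was detectable at 10 and 7 reads. C5 was at 0.685 of its level in A375+DMSO (0.429 to 1.08), a difference that was not detectable at this depth either.

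**Figure D2:**
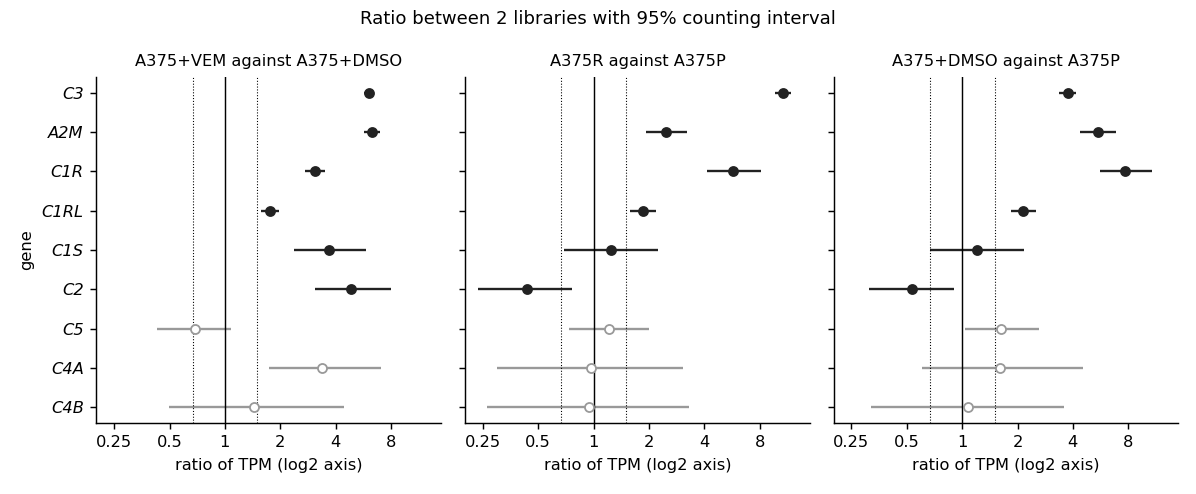
Ratio of TPM between 2 libraries (log2 axis) for each gene, with exact 95% intervals on the reads, filled points for genes that passed the filter, open points for the rest, and dotted lines at 1.5-fold. With vemurafenib against DMSO the 6 filled points lie between 1.76 and 6.32, whereas C2 lies at 0.433 for A375R and at 0.536 for A375+DMSO when A375P is the control.

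A375R, which was kept under vemurafenib, was compared with A375P, so resistance and continued drug exposure cannot be told apart in this pair. C3 was 10.7-fold higher in A375R (95% interval 9.74 to 11.8), at place 12 of the 1689 genes compared. C1R was 5.74-fold higher (4.14 to 8.11), A2M 2.49-fold (1.94 to 3.21) and C1RL 1.86-fold (1.58 to 2.19). C1S had a ratio of 1.25 (0.692 to 2.25), so no difference was detectable at 27 and 24 reads. C2 was lower, at a ratio of 0.433 (0.236 to 0.762). It passed the filter through A375P alone, in this pair and in A375+DMSO against A375P, so it had to be lower in the other library. With 1 added to TPM in place of 0.1, C2 was no longer past the threshold in these pairs. So 4 of the 6 genes in the filter were past 1.5-fold upward and 1 downward, where 26.8% and 17.5% of the genes compared were (44.3% either way). The median log2 ratio was 1.08 over the 6 genes, 0.29 over all 9 and 0.10 over all genes compared.

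The libraries without vemurafenib also differed in these genes. A375+DMSO was higher than A375P by 7.72-fold for C1R (95% interval 5.62 to 10.8), 5.45-fold for A2M (4.36 to 6.88), 3.75-fold for C3 (3.38 to 4.17) and 2.15-fold for C1RL (1.84 to 2.52). C2 was lower in A375+DMSO, at a ratio of 0.536 (0.310 to 0.902), and C1S had a ratio of 1.21 (0.670 to 2.18). The counts were again 4 genes upward and 1 downward of 6, where 26.8% and 18.9% of the 1720 genes compared were (45.7% either way). This comparison and that of A375R with A375P share the A375P library. C5 was below the filter, and its ratio of A375+DMSO to A375P was 1.62 (1.03 to 2.60).

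Set against A375+DMSO instead of A375P, A375R was past the threshold upward for C3 alone. C3 was 2.86-fold higher in A375R (95% interval 2.70 to 3.03), at place 30 of 1702 genes compared, of which 10.5% were past 1.5-fold upward. A2M was lower in A375R, at 0.456 of its level in A375+DMSO (0.386 to 0.538), where 9.99% of genes were past 1.5-fold downward and 20.5% either way. C1R at 0.743 and C1RL at 0.865 were lower by less than the threshold, and C1S at 1.03 (0.583 to 1.83) did not differ detectably. C2 was not among the genes compared in this pair, at 18 and 23 reads. Only C3 was therefore past 1.5-fold upward in A375R against both libraries without vemurafenib.

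The values of A375+VEM were past the threshold against either control. Against A375P, A2M was 34.5-fold higher (95% interval 28.0 to 42.8), C1R 23.8-fold (17.6 to 33.0), C3 22.7-fold (20.6 to 25.0), C1S 4.45-fold (2.83 to 7.27), C1RL 3.78-fold (3.27 to 4.38) and C2 2.60-fold (1.83 to 3.76), where 36.9% of 1782 genes were past 1.5-fold upward, 25.3% downward and 62.1% either way. Against A375R the same genes were higher as well, from 2.03-fold for C1RL (1.80 to 2.30) and 2.11-fold for C3 (2.04 to 2.19) to 13.8-fold for A2M. C1RL was at place 347 and A2M at place 24 of the 1773 genes compared there, and the share past 1.5-fold was not computed. C1S against A375P and C2 against A375R passed the filter through A375+VEM alone, so they had to be higher there.

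**Figure D3:**
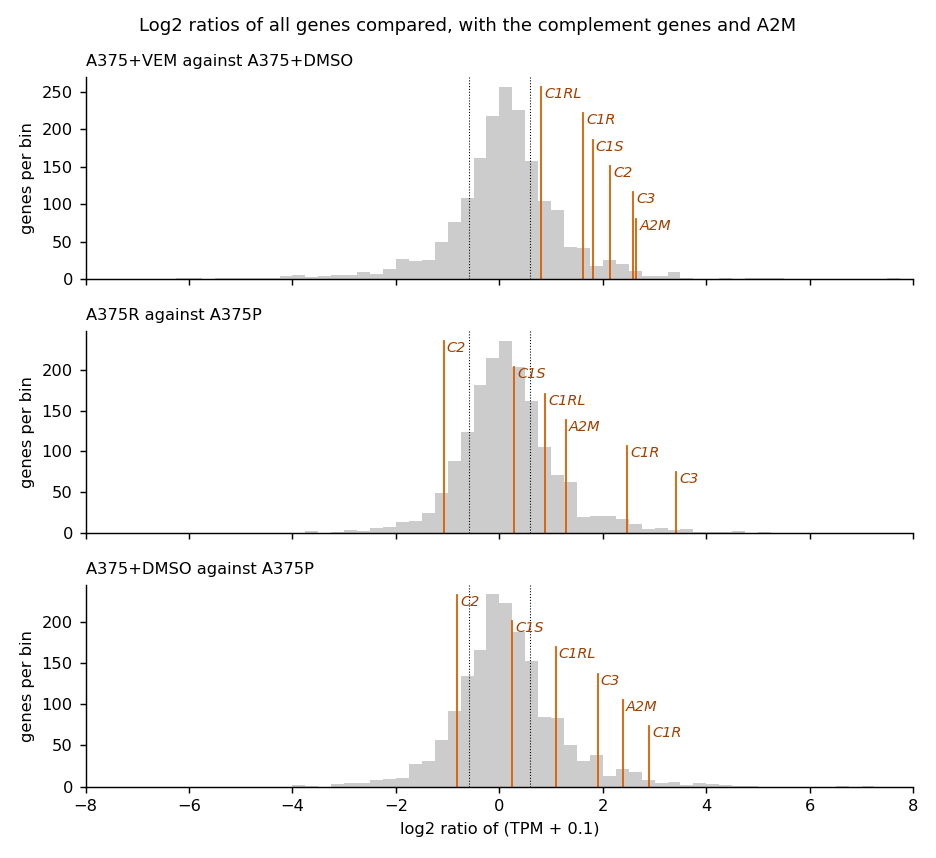
Histograms of the log2 ratio of (TPM + 0.1) over all genes compared, in bins of 0.25, for 3 pairs of libraries, with lines at the 6 genes in the filter and dotted lines at 1.5-fold. With vemurafenib against DMSO the 6 lines lie from 0.81 (C1RL) to 2.65 (A2M), while in the other 2 pairs C2 lies on the left at -1.08 and -0.82.

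Other genes of the pathway were read from a list of 28 complement components and a list of 22 regulators and receptors. The table holds 9 further components, and only C8G, a subunit of the lytic complex, reached a TPM of 1, with 12, 6, 10 and 10 reads in A375P, A375R, A375+DMSO and A375+VEM. C1QA, C1QB and C1QC, the chains that recognise the target and recruit C1r and C1s, had 0 to 3 reads in each library. The components C6, C7, C8A, C8B and C9, which follow C5 in the lytic complex, had 1 to 9 reads in each library. Of the 6 regulators and receptors in the table, 4 were compared between A375+VEM and A375+DMSO. C3AR1, the receptor for the C3a fragment, had 17, 16, 12 and 88 reads and exceeded A375+DMSO 7.38-fold in A375+VEM (95% interval 4.02 to 14.8). C4BPB, a subunit of the C4b-binding protein, had 3, 1, 4 and 15 reads and a ratio of 3.78 in that pair (1.20 to 15.6). C3AR1 and C4BPB both passed the filter through A375+VEM alone, so they had to be higher there. C5AR1, the receptor for the C5a fragment, had a ratio of 1.37 (0.955 to 1.97). C1QBP, a mostly mitochondrial protein that binds C1q, was lower in A375+VEM, at a ratio of 0.518 (0.497 to 0.541). None of the 2 regulators and receptors compared in A375R against A375P was past 1.5-fold, where 44.3% of all genes compared were either way.

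Markers of cells that could supply these transcripts were read beside them. All 8 hepatocyte markers in the list (ALB, AHSG, AMBP and 5 apolipoprotein genes) had reads in every library, with a summed TPM of 131 in A375P, 102 in both A375R and A375+DMSO, and 98.5 in A375+VEM. ALB, which encodes serum albumin, had a TPM of 64.5, 51.5, 47.1 and 46.4. None of the 8 was past 1.5-fold between A375+VEM and A375+DMSO, where 46.2% of all genes compared were either way. Their median log2 ratio there was 0 after rounding, against 0.11 over all genes compared. The hepatocyte markers were higher in sum in A375P than in A375R and A375+DMSO. In A375R against A375P, APOA2 and APOC3 of the 8 were past 1.5-fold downward, where 17.5% of all genes compared were. Whether the source of the marker reads also gave reads of C3, A2M, C1R, C1RL, C1S, C2, C4A, C4B or C5 was not tested. Of 7 macrophage markers, 4 were read here (AIF1 and the C1q genes C1QA, C1QB and C1QC named above). They summed to 2 to 6 reads per library, and C1QA was at 0 reads in all 4 libraries. CD14, CD68 and CD163 were not analysed here, so the presence of macrophages was not tested.

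**Figure D4:**
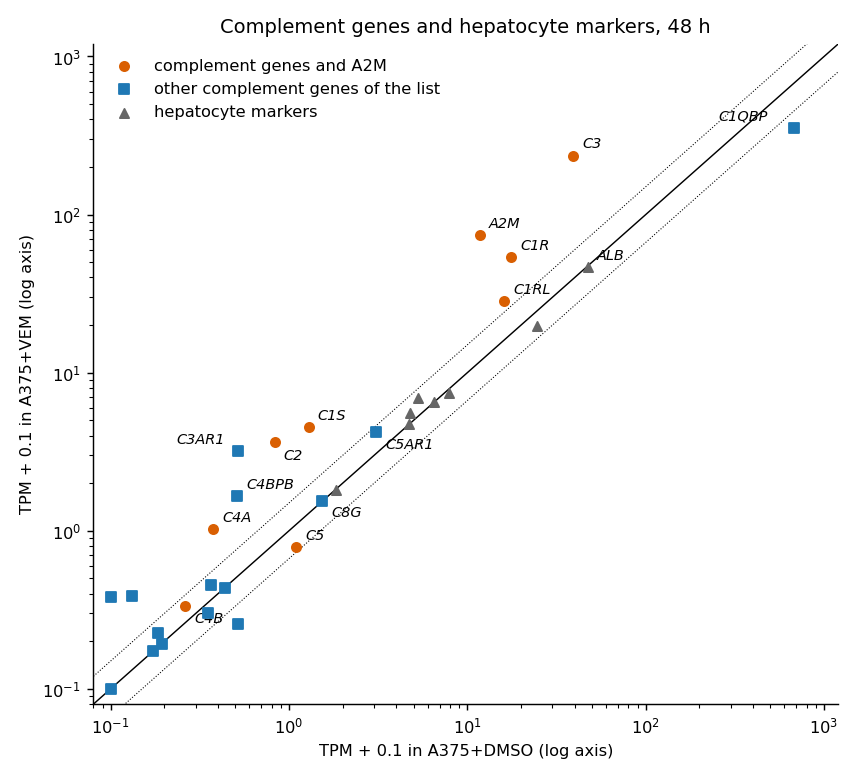
TPM + 0.1 in A375+DMSO (horizontal, log axis) and in A375+VEM (vertical, log axis), 1 point per gene, with the line of equal values and dotted lines at 1.5-fold. A2M, C3, C1R, C1RL, C1S, C2, C4A, C3AR1, C4BPB, C6 and C1QB lie above the lines, while C1QBP and C8A lie below them. Of these, C4A, C6, C1QB and C8A were under the filter. The 8 hepatocyte markers lie between the lines.

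Reads of neighbouring or copied genes limit some of these values. A2M overlaps the antisense gene A2M-AS1 by 348 bases, C1RL overlaps C1RL-AS1 by 971 bases and C2 overlaps C2-AS1 by 7251 bases, and the sources used here give no strand setting for the counting. A2M-AS1 had 6, 7, 13 and 25 reads in A375P, A375R, A375+DMSO and A375+VEM, against 93 to 2969 of A2M. C1RL-AS1 had 132 to 165 reads and was lowest in A375+VEM, where C1RL was highest. C2-AS1 had 2 reads in A375P and 0 in the other libraries. In GENCODE v29, 55.1% of the windows of 100 bases in the longest C2 transcript also occur in transcripts of another gene. For C1R 22.5% do, all in transcripts annotated to its neighbour C1RL, so some of the reads of C1R and C1RL may not be told apart. For the longest transcripts of C3, C1RL and C5 the share is 0%.

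C3 was the gene with the highest mean TPM of the 9 and A2M the one with the widest range over the 4 libraries, 5.04 on the log2 scale. Likeness to them was measured as the root mean square difference of centred log2(TPM + 0.1) over the 4 libraries, among 1694 other genes whose mean TPM reached 1. Nearest to C3 were AKR1C3 at 0.45, C1QTNF1 at 0.52 and ABHD11-AS1 at 0.56. Nearest to A2M were ABAT at 0.17, BCO2 at 0.26 and C14orf132 at 0.28. ABAT, which encodes GABA transaminase, was read 48 times in A375P, 104 times in A375R, 252 times in A375+DMSO and 1212 times in A375+VEM. With 4 libraries this likeness is a description.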

How the data were processed

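RNA of 4 A375 libraries (A375P, A375R, A375+DMSO and A375+VEM) was sequenced, with 1 library per condition. The authors deposited 1 table with a raw read count per gene and library and a TPM made by the authors from count and gene length. TPM times length divided by the count was 1 constant per library, so TPM rests on the whole library. The submitters' processing notes name hg19, HISAT2, TopHat2, Bowtie2 and HISAT, and the counting program and strand setting are not given in the sources used here. The table used here holds 2864 genes, and 1 incomplete row was left out.

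The members and lists were chosen with earlier results of these data known. Text names the 9 members, listed genes, antisense neighbours and the 3 genes nearest in pattern to C3 and to A2M. Pairs were compared by (TPM + 0.1), with a threshold of 1.5-fold, for genes that reached a TPM of 1 in either library. With 1 library per condition, conditions were not tested. The ratio step and intervals were tested on simulated data. Alternatives were pseudocounts of 1 and 0.01, a median ratio of 1, no filter, a TPM of at least 5, 2-fold, and the other control. Python 3.11.15, numpy 2.4.6, pandas 2.3.3, scipy 1.17.1 and matplotlib 3.10.9 were used.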

Additional observations from a re-analysis of the deposited data

Results flagged for a closer look

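C2 went past 1.5-fold downward in one pair and upward in the other. Its log2 ratio was -1.08 in A375R against A375P, from 46 to 18 reads, and 2.14 in A375+VEM against A375+DMSO, from 23 to 111 reads. This difference was not tested, since each condition had 1 library. In A375R against A375P, C2 passed the filter through A375P alone, so it had to be lower in A375R. In A375+VEM against A375+DMSO it passed through A375+VEM alone, so it had to be higher there. Against A375P, A375+VEM was also higher for C2, at a log2 ratio of 1.32, so the direction in A375+VEM held with either control. Against A375+DMSO, C2 in A375R had a log2 ratio of -0.27 and a TPM ratio of 0.808 (95% interval 0.411 to 1.57), so a lower level was not detectable with that control. With a pseudocount of 1, the log2 ratio was -0.57 in A375R against A375P and 1.39 in A375+VEM against A375+DMSO.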

How the results depend on the processing

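With A375+DMSO as the control of A375R, 2 members were past 1.5-fold (1 higher and 1 lower, of 5 compared) where 5 had been against A375P, and the log2 ratio turned to -1.12 for A2M, -0.43 for C1R and -0.21 for C1RL. C3 stayed higher, at 1.51. The cause was not tested. In A375+VEM, 6 members were past 1.5-fold with either control. The other counts stayed within 1.5 times of those reported under each alternative. With a pseudocount of 1, 4 members were past the threshold in A375R and in A375+DMSO against A375P, C2 no longer among them. Without the filter, C4A joined in A375+VEM for 7. The genes compared had a median log2 ratio of 0.09 to 0.11 in the 3 pairs, and scaling it to 0 left each count as it was. No paired analysis was possible because each condition had 1 library, and for the same reason no library could be left out. C4A, C4B and C5, at 6 to 50 reads, are limited by depth.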

Other observations

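Of a list of 27 interferon-inducible genes, 13 were in the table and all reached a TPM of 1. Between A375+VEM and A375+DMSO, 3 of them were past 1.5-fold upward (APOL1, APOL3 and B2M) and APOBEC3G downward, where 26.5% of all genes compared were upward and 19.7% downward, and the median log2 ratio was 0.09 against 0.11 over all genes compared. In A375R against A375P, 9 of the 13 were past it upward and 0 downward, where 26.8% and 17.5% of all genes compared were, with a median of 1.45 against 0.10. In A375+DMSO against A375P 7 were upward and 1 downward, where 26.8% and 18.9% of all genes compared were, with a median of 0.95 against 0.09. APOBEC3G, a cytidine deaminase, was read 240 times in A375P, 1966 times in A375R, 615 times in A375+DMSO and 271 times in A375+VEM. In a list of 21 liver plasma protein genes, 11 were in the table and 9 were compared between A375+VEM and A375+DMSO, where 0 were past 1.5-fold in either direction, against 46.2% of all genes compared. A2ML1, the further member of the alpha-macroglobulin family in the table, had 6 reads in A375+VEM, 2 in A375+DMSO and 0 in both A375P and A375R.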
